A study of Mus musculus with 4 samples.

Results

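The genes described are those with lower values both after Klf4 transduction and in the library labelled Klf4 cKO, 190 of the 10268 genes that could enter. A gene could enter when its mean over the 4 libraries was at least 1 TPM (a length-scaled share of a library) and its symbol was not one of a set of excluded name families. Those families are predicted Gm and Rik genes, microRNA, snoRNA and nuclear RNA names, ribosomal protein genes, the Nduf, Cox, Atp5 and Uqcr genes of oxidative phosphorylation, and symbols starting with Tra, Trb, Trd or Trg. A member had a difference of log2(TPM + 1) of -1 or lower both for Klf4 minus MigRI and for Klf4 cKO minus Control (WT). The members were thus chosen by their differences in these same libraries, which are given only as a description.

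The study measured gene expression by SMART-seq, which amplifies cDNA from little RNA, in mouse CD8 T cells taken from MC38 colon carcinoma. In one experiment, Pmel-I CD8 T cells, whose transgenic receptor recognises gp100, were transduced with the retroviral vector MigRI or with Klf4. They were given intravenously on day 7 to Rag2 KO mice, which lack their own T and B cells, bearing MC38-gp100 tumours, and the infiltrating cells that carried GFP were recovered on day 15. In the other experiment, tumour-infiltrating CD8 cells positive for PD1 came from control (WT) and Klf4 cKO mice, 14 days after MC38 cells were implanted. Each mouse received 300000 tumour cells, and a sample held 10000 to 20000 isolated cells. The labels do not give the Cre driver of the cKO mice, the part of Klf4 that was deleted or how many animals a sample held.

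Each group had 1 library. Differences are therefore between single libraries, without a replicate check, a spread or a test. The 2 comparisons share no library. Klf4, a zinc finger transcription factor, stood at 8.69 TPM in MigRI, 26.05 in Klf4, 7.52 in Control (WT) and 9.28 in the library labelled Klf4 cKO, so it was higher after transduction and was not lower in the library labelled Klf4 cKO. That label is therefore used as given. The read depth of the libraries is unknown because TPM keeps none. The median eligible gene was higher by 0.97 log2 with Klf4 and by 0.79 log2 in the library labelled Klf4 cKO, so a member moved against most genes in both comparisons.

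Many members have short messages. Replication-dependent histone genes supply the histone proteins that package newly made DNA. Their messages lack introns and most end in a conserved stem loop in place of a poly(A) tail. How fully these libraries captured RNAs without such a tail was not tested. Other members encode small subunits of large assemblies, such as the spliceosome, RNA polymerase, the mitochondrial ribosome and the mitochondrial import channels. A further few are small proteins of lymphocytes or of the interferon response.

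In all, 806 eligible genes (7.85%) were lower by at least 1 log2 with Klf4 and 505 (4.92%) were lower by as much in the library labelled Klf4 cKO. The 190 members (1.85% of eligible genes) are 23.6% of the former and 37.6% of the latter. The median difference of the members was -1.58 with Klf4 and -1.499 in the library labelled Klf4 cKO, and 15 members were at -2 or lower in both. In 108 of the 190 (56.8%) the difference was lower in the Klf4 comparison than in the other, against 43.6% of eligible genes. Every member passed the filter on low values, since the filter is part of the rule. The filter and the fold can both be met through the 2 higher libraries alone, and 6 members were under 1 TPM in both Klf4 and the library labelled Klf4 cKO.

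**Figure D1:**
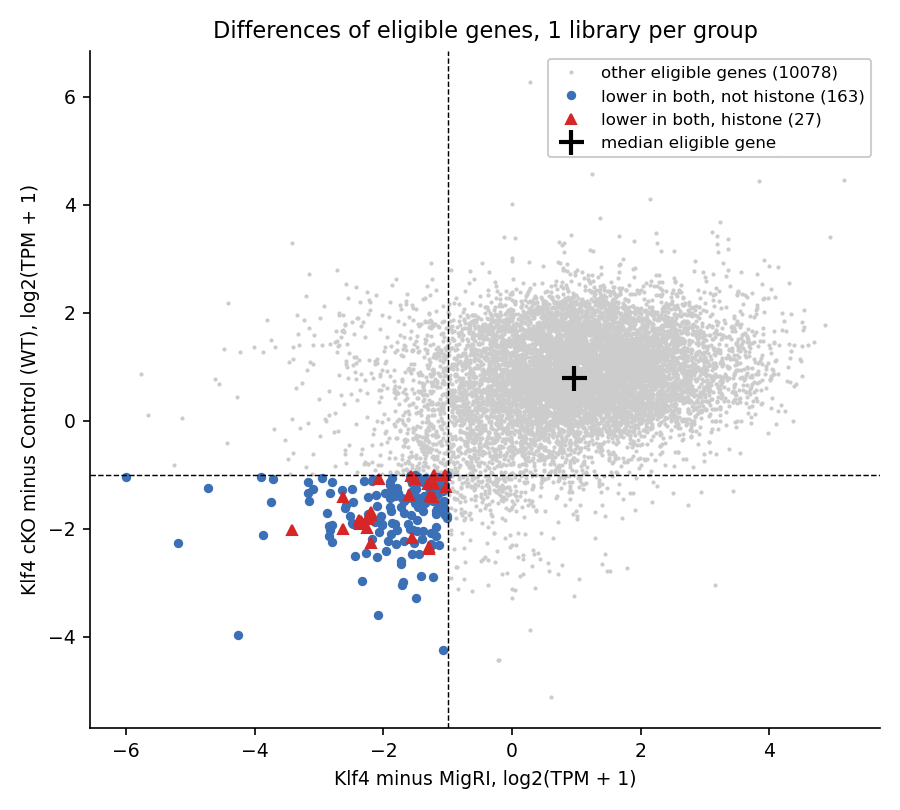
Each point is an eligible gene, with its difference of log2(TPM + 1) for Klf4 minus MigRI across and for Klf4 cKO minus Control (WT) up; dashed lines mark -1 and the cross marks the median gene (0.97 and 0.79). The 190 members fill the lower left corner by choice, and the 27 histone genes among them (triangles) lie between -3.42 and -1.02 across.

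Just inside the threshold stood the histone gene H3c1, with a weaker difference of -1.001, and D8Ertd738e, with -1.01. Just outside stood the phosphatase gene Ptpn18, with -0.99, and the histone gene Hist1h2bp, with -0.99. Ptpn18 had 78.6 TPM in MigRI, 8.22 in Klf4, 308 in Control (WT) and 154 in the library labelled Klf4 cKO. These values differ little across the threshold, which is a convention and not a boundary in the data.

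Members were abundant. Their median mean level was 85.5 TPM, against 8.64 TPM for all eligible genes. There were 17 members with a mean of 1000 TPM or more, 90 with 100 or more and 43 under 10. The share of eligible genes that are members was 0.785% at 1 to 10 TPM, 1.57% at 10 to 100, 6.95% at 100 to 1000 and 15.04% at 1000 or more. Part of this order is set by the rule, because the pseudocount of 1 holds back the differences of low genes. By the rule a member can be highest only in MigRI or Control (WT), and lowest only in Klf4 or the library labelled Klf4 cKO. The highest value was in Control (WT) for 177 members and in MigRI for 13, against 9.80% and 8.77% of eligible genes. The lowest was in Klf4 for 178 and in the library labelled Klf4 cKO for 12, against 13.4% and 5.74% of eligible genes. Since the experiments differ in cells, host and day, levels across them are only set side by side.

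Together the members held 6.21% of all TPM in MigRI and 1.69% in Klf4. In the other experiment they held 14.7% in Control (WT), against 4.62% in the library labelled Klf4 cKO. The 10 most abundant members made up 1.98%, 0.434%, 6.79% and 2.03% in the same order of libraries. Short genes outside the members, those whose longest transcript is under 1000 nt, also held less TPM in Klf4 (13.5%) than in MigRI (20.3%), and 27.1% in the library labelled Klf4 cKO against 30.6% in Control (WT).

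**Figure D2:**
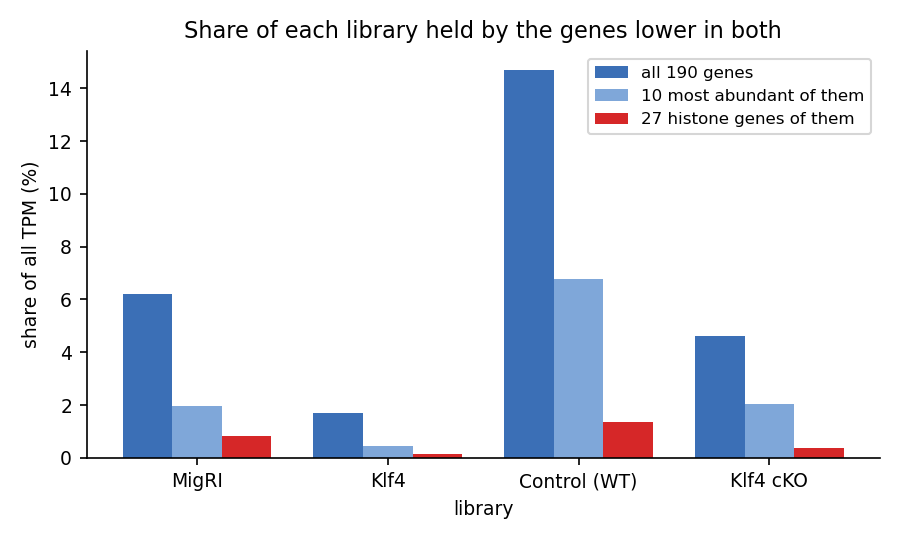
Bars give the percent of all TPM of each library that was assigned to all 190 members, to the 10 most abundant and to the 27 histone genes, with 1 library per group. All 3 sets hold less in Klf4 than in MigRI and less in the library labelled Klf4 cKO than in Control (WT); the members as a whole go from 6.21% to 1.69% and from 14.7% to 4.62%.

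Length was not used by the rule. A GENCODE vM21 transcript length was found for 162 members and 9945 eligible genes. The longest annotated transcript of a member had a median of 1049.5 nt, against 3086 nt for eligible genes. It was under 1000 nt in 78 of 162 members (48.1%), against 6.27% of eligible genes. By the shortest annotated transcript the contrast was small, with medians of 455 nt and 495 nt. That transcript was under 500 nt in 57.4% of members and 50.6% of eligible genes. The coding length, for 143 members that GENCODE calls protein-coding, had a median of 390 nt against 1260 nt, and 94 of the 143 (65.7%) had at most 450 coding nucleotides, against 7.35% of eligible coding genes. The longest transcript had a single exon in 48 members (29.6%), against 7.36% of eligible genes. The histone members are all among these 48. Without histone genes the longest transcript of a member had a median of 3 exons, against 7 for eligible genes. The median GC content of the longest transcript was 51.1% in members and 49.7% in eligible genes.

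Read by length, 21.01% of eligible genes under 500 nt were members, 10.5% from 500 nt up to 1000 nt, 1.81% from there up to 2000 nt, 0.798% up to 4000 nt and 0.503% at 4000 nt or more. The eligible genes of the shortest class had a median difference of -0.58 with Klf4 and -0.81 in the library labelled Klf4 cKO, while genes from 1000 nt up to 2000 nt had 0.86 and 1.32. Length and level both went with membership. Among genes under 1000 nt, 8.59% of those under 100 TPM and 17.9% of those at 100 TPM or more were members. Among longer genes the shares were 0.522% and 4.47%. Without the histone genes the median length of the members was 1279 nt. TPM divides by transcript length, and the part of length in these differences was not tested.

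Genes lower in only 1 comparison were longer. The 616 genes lower with Klf4 and not in the library labelled Klf4 cKO had a median longest transcript of 1937.5 nt, with 21.9% under 1000 nt. The 315 genes lower only in the library labelled Klf4 cKO had a median of 2863 nt, with 23.1% under 1000 nt. With genes as the only repeats, these differences in length carry no test.

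**Figure D3:**
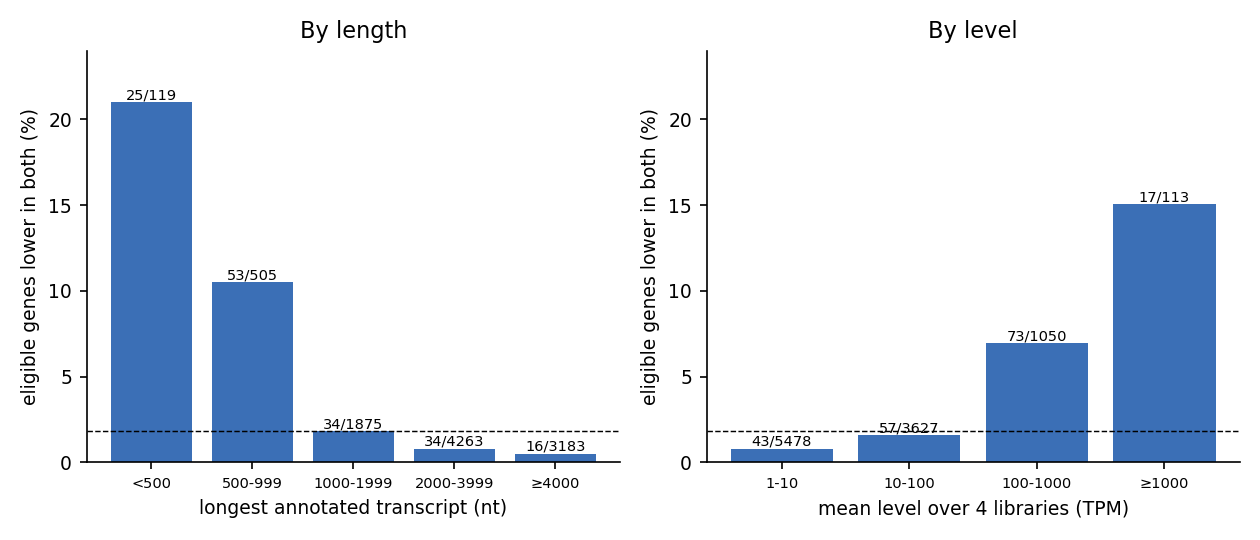
Bars give the percent of eligible genes that are members, by longest annotated transcript (left, nt) and by mean level over the 4 libraries (right, TPM), with members over eligible genes written above; the dashed line is 1.85%, the share over all eligible genes. The share drops from 21.01% to 0.503% with length and climbs from 0.785% to 15.04% with level.

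By RefSeq class, which 189 members have, 144 (76.2%) were protein-coding, against 94.7% of eligible genes. Long non-coding RNA genes were 24 (12.7%), against 1.92% of eligible genes. The rest were 6 pseudogenes and 1 transcribed pseudogene, 6 small nuclear RNAs, 3 transfer RNAs, and 1 each of snoRNA, guide RNA, antisense RNA, RNase P RNA and immunoglobulin joining segment. Of the 27 members with a LOC symbol, 19 have a RefSeq name of an excluded family (for example a Gm name) and entered only through the older symbol. The non-coding members held 0.386% of TPM in MigRI, 0.0862% in Klf4, 1.03% in Control (WT) and 0.163% in the library labelled Klf4 cKO.

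Histone genes were the largest named family. Of 62 eligible replication-dependent histone genes, 27 (43.5%) were members, against 1.85% of all eligible genes. With Klf4, 44 of the 62 were lower by at least 1 log2 and 0 higher by as much. In the library labelled Klf4 cKO, 30 were lower and 1 (H1f1, 0.668 TPM in Control and 2.96 there) was higher. The family was gathered under new and old symbols after values were seen. Most members belong to H2A, with 15 of 17 eligible genes, followed by H4 with 5 of 12, H3 with 4 of 12 and H2B with 3 of 16. The linker histones H1, which bind between nucleosomes, had 0 of 5.

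The following runs show the stem loop of 6 histone members, because it is a feature shared within the family that the rule did not use. Each run is the DNA form of 26 bases of the GENCODE transcript, 5′ to 3′, with the 16 bases of the stem loop motif in capitals. The symbol H2c8 stands for an H4 gene, named H4c8 in RefSeq.
H2ac11: GGCTCTTTTCAGAGCCacctaacctt
H2ac6: GGCTCTTTTCAGAGCCcccacttttt
H2ac20: GGCTCTTTTTAGAGCCaccaaatctt
H2bc3: GGCTCTTTTAAGAGCCacccacactt
H3c14: GGCTCTTTTCAGAGCCaccacagctt
H2c8: GGCCCTTTTCAGGGCCgcccacattt
The search took the 16 bases in capitals on the transcript strand, with any base allowed at the positions where these 6 runs differ. A match was in an annotated transcript of 18 of the 27 histone members and in 0 of the 135 other members with a transcript sequence. A match was also in 38 of the 62 eligible histone genes (61.3%), against 66.7% of the histone members. It was in 43 of 9945 eligible genes (0.432%) and in 47 of 55450 GENCODE genes. The 9 histone members without it include H2ac12 and H2ac10, and a missing match says only that these letters are not in the annotated transcript.

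H2ac11, a core H2A gene on chromosome 13 (22042478 to 22042949), had 1995 TPM in MigRI, 393 in Klf4, 3260 in Control (WT) and 900 in the library labelled Klf4 cKO, differences of -2.34 and -1.86. H2ac12, about as short and nearby (22035122 to 22035643), had 1244, 200, 1821 and 456 TPM, differences of -2.63 and -1.996. For both, each higher library stood above both lower ones. H2A messages are close copies of each other: 78.9% of the 50-base windows of H2ac11, 90.7% of those of H2ac12 and 100% of those of H2ac19 also occur in another gene, so reads could be split between copies and single H2A values are uncertain. Summed over the 17 eligible H2A genes, which removes splitting among these genes, the level was 8137 TPM in MigRI, 1617 in Klf4, 13118 in Control (WT), with 3619 in the library labelled Klf4 cKO.

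The other core families were lower in level. H2bc14, an H2B gene, had 43.6, 3.16, 55.9 and 12.9 TPM in MigRI, Klf4, Control (WT) and the library labelled Klf4 cKO, with differences of -3.42 and -2.03. H4c3, an H4 gene, had 26.2, 3.39, 66.0 and 24.03 TPM. The 3 H3 genes H3c13, H3c14 and H3c15 had 9.73 to 19.2 TPM in MigRI, 3.40 to 5.86 in Klf4, 42.5 to 61.7 in Control (WT) and 7.53 to 12.9 in the library labelled Klf4 cKO. Summed H1 levels went the other way in the second experiment, with 101 TPM in Control (WT) and 117 in the library labelled Klf4 cKO. Histone genes are used in S phase. Of 19 general proliferation genes, 0 were members, against 1.85% of all eligible genes. On this list 2 were lower and 8 higher with Klf4, and 0 were lower and 14 higher in the library with the cKO label. Other cell division genes outside that list were members, such as Cenpk (differences of -1.80 and -2.28) and Cdkn3 (-1.17 and -1.11). Any part of proliferation in these differences was not tested.

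**Figure D4:**
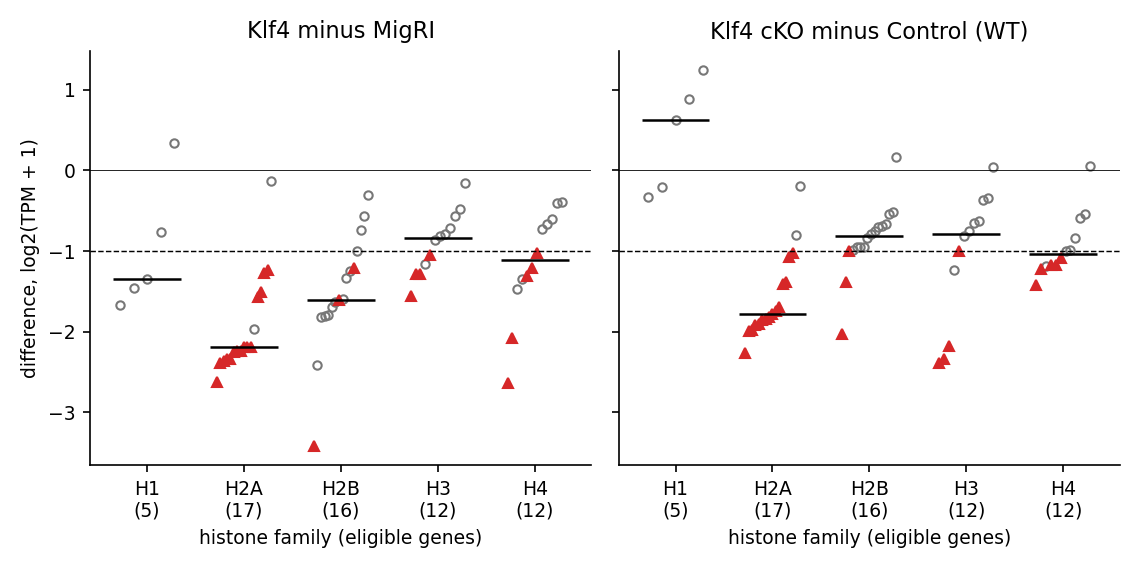
Each point is an eligible histone gene with its difference of log2(TPM + 1), for Klf4 minus MigRI (left) and Klf4 cKO minus Control (WT) (right); red triangles are members, open circles other eligible genes, black bars family medians and the dashed line -1. The H2A median is -2.19 and -1.78, while the H1 median is -1.34 on the left and 0.63 on the right.

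The promoter stretches of H2ac11 and H2ac12 are shown because the CCAAT box is known from histone promoters and 15 of 17 eligible H2A genes were members. They run from 250 bases before the start to 50 after it, 5′ to 3′ along the gene, from RefSeq on GRCm38.p6, with every CCAAT or its reverse complement ATTGG in capitals.
H2ac11 (chr13:22042900-22043199, minus strand): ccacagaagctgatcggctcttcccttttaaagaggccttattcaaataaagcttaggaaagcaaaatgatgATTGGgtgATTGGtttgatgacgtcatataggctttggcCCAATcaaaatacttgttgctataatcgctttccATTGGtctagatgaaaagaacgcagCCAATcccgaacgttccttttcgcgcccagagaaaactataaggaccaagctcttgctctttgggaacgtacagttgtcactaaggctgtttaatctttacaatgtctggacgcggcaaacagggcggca
H2ac12 (chr13:22035594-22035893, minus strand): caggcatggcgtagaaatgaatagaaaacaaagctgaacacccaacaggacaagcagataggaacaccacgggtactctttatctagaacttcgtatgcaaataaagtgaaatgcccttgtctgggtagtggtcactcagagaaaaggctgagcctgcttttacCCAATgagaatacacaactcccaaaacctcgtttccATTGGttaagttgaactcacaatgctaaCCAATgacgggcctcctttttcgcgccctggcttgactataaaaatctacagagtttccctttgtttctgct
H2ac11 has 5 such matches and H2ac12 has 3. Of 25 histone member promoters, 22 (88%) hold at least 1, against 41.0% of the other members' promoters, 38.2% of those of eligible genes and 37.4% of all RefSeq promoters in the table. CACCC or GGGTG, a short form of the motif that Kruppel-like factors bind, was in 36% of histone member promoters, 53.5% of the other members', 62.6% of eligible and 57.5% of all promoters. CCGGAAG or CTTCCGG, an ETS-type motif, was in 0 of 25 histone member promoters, 24.3% of the other members', 18.5% of eligible and 8.86% of all promoters. Promoters of eligible histone genes outside the members were not counted. Whether these shares go with membership or with the histone family as a whole is therefore not known. A match is a run of letters and not a binding site. The promoter of Nedd8 is shown as a non-histone member with 1 CCGGAAG, in capitals, and 0 CCAAT.
Nedd8 (chr14:55671831-55672130, minus strand): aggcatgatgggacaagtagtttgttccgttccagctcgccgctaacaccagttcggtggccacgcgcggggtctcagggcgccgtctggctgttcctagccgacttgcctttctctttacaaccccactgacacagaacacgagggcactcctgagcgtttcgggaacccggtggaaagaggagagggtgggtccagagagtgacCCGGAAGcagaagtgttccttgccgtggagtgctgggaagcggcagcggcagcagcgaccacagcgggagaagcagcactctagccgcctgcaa

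Among surface and interferon-inducible genes stood the most abundant members. Cd52 encodes a small lipid-anchored glycoprotein of the lymphocyte surface (chromosome 4, 134093538 to 134095073). It had 2431 TPM in MigRI, 271 in Klf4, 21484 in Control (WT) and 7631 in the library labelled Klf4 cKO, differences of -3.16 and -1.49. Cd52 alone was 2.15% of the Control (WT) library and 0.763% of the library labelled Klf4 cKO. It was the only one of 24 eligible receptor signalling genes among the members (4.17%, against 1.85% of all eligible genes). Of the 24, 14 were lower with Klf4, while 1 was lower and 15 were higher in the second comparison. Hcst, the adaptor of the activating receptor NKG2D, had 170, 12.02, 1609 and 762 TPM in the same library order. Its difference was -3.71 with Klf4 and -1.08 in the library labelled Klf4 cKO, so it stood close to the threshold in the second comparison.

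Ifi27l2a, an interferon-inducible gene, had 2157 TPM in MigRI, 343 in Klf4, 6658 in Control (WT) and 2736 in the library labelled Klf4 cKO. Ifitm1, an interferon-induced membrane protein gene, had 517, 109, 3815 and 1425 TPM. In both genes the library labelled Klf4 cKO stood above MigRI, and only the difference within each experiment was negative. The RefSeq span of Ifi27l2a overlaps that of Ifi27, which had 503, 433, 190 and 603 TPM, differences of -0.22 and 1.67. Isg15, a further interferon-induced gene, had differences of 0.41 and -0.49. No list of interferon genes was counted, so these genes do not stand for that response. Ccl1, a chemokine gene, had 310, 70.5, 1879 and 725 TPM. Crip1, which encodes a small LIM domain protein, had 2830, 394, 10835 and 2792 TPM, with differences of -2.84 and -1.96.

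**Figure D5:**
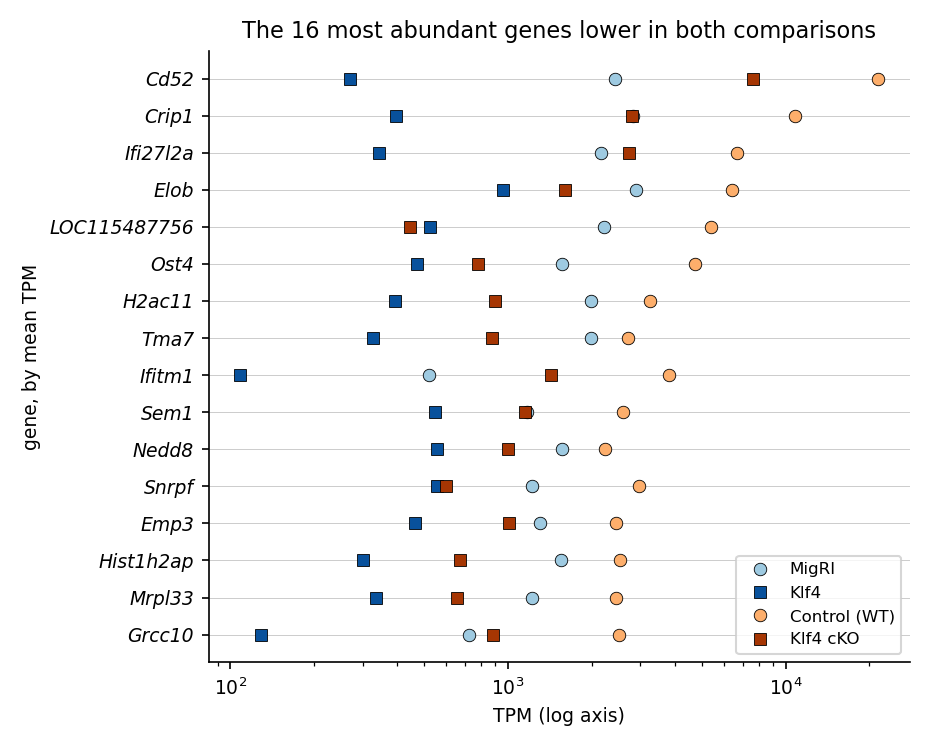
Points give the TPM of the most abundant members in each library (log axis), ordered by mean level, circles for MigRI and Control (WT) and squares for Klf4 and Klf4 cKO. Within each experiment every square lies left of its circle, as the rule requires; MigRI and Klf4 cKO overlap for Crip1 (2830 and 2792 TPM).

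Small subunits of the ubiquitin system were next. Elob, elongin B of cullin ubiquitin ligases (chromosome 17, 23824740 to 23829109), had 2899, 961, 6418 and 1603 TPM in MigRI, Klf4, Control (WT) and the library labelled Klf4 cKO, differences of -1.59 and -2.0004. Nedd8, the ubiquitin-like protein attached to cullins, had 1566, 557, 2231 and 1002 TPM, and Rbx1, the RING subunit of the same ligases, had 556, 234, 1016 and 374 TPM. Sem1, a very small subunit of the proteasome lid, had 1167, 546, 2592 and 1151 TPM. Of 18 eligible genes on the list of ubiquitin-like proteins and their conjugation, Nedd8 and Rbx1 were the 2 members; with Klf4 2 were lower and 3 higher, and 2 were lower and 8 higher in the second comparison. Most of the list thus did not move with these genes.

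Of 23 eligible small spliceosome genes, 4 were members: Snrpf, Snrpg and Snrpd2 of the Sm ring and Lsm7 of the related Lsm ring. Lsm7 had 971, 200, 1105 and 201 TPM in MigRI, Klf4, Control (WT) and the library labelled Klf4 cKO, differences of -2.28 and -2.45. Snrpf had 1218, 556, 2951 and 598 TPM. On the whole list, 9 were lower and 1 higher with Klf4, and 4 were lower and 8 higher in the library with the cKO label. Of 12 small RNA polymerase subunits, 4 were members: Polr2f, Polr2i, Polr2k and Polr2l. Polr2i, a zinc-binding subunit of RNA polymerase II, had 401, 147, 856 and 154 TPM. With Klf4 6 of the 12 were lower and 1 higher, and 4 were lower and 5 higher in the second comparison.

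Mitochondrial members came from several machines. Of 82 eligible mitochondrial ribosomal genes, 8 were members, one of them the pseudogene Mrpl23-ps1. Mrpl33, a small protein of the large subunit, had 1224, 335, 2442 and 656 TPM in MigRI, Klf4, Control (WT) and the library labelled Klf4 cKO. On that list 25 were lower and 7 higher with Klf4, and 10 were lower and 39 higher in the library with the cKO label. The 8 are thus a minority of their list, which was mostly higher in the second comparison.

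Of 25 genes of mitochondrial import and assembly, 6 were members: Tomm7 of the outer membrane channel, Timm8b and Timm10b of the intermembrane chaperones, Micos10 and Micos13 of the cristae complex, and Romo1, a small inner membrane protein. Romo1 had 584, 256, 1469 and 335 TPM. Timm8b had 665, 239, 1308 and 366 TPM. The list as a whole had 9 lower and 1 higher with Klf4, and 7 lower and 9 higher in the library labelled Klf4 cKO. Cycs, cytochrome c, had 443, 148, 320 and 149 TPM and was one of the members whose highest value was in MigRI.

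Among the excluded name families, the same thresholds were met by 44 of 104 measured Nduf, Cox, Atp5 and Uqcr genes (42.3%) and by 13 of 205 symbols starting with Rpl or Rps (6.34%). Over all names left out the count was 169 of 2302 (7.34%). The name rule thus left out more oxidative phosphorylation genes that met the thresholds (44) than there are histone members (27).

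Of 20 eligible mitochondrial transfer RNAs, which carry amino acids to the mitochondrial ribosome, 3 were members: TrnN, TrnC and TrnY, for asparagine, cysteine and tyrosine. They lie side by side on the same strand of the mitochondrial genome, at MT positions 5089 to 5159, 5192 to 5257 and 5260 to 5326. Their sequences on that strand are given because they are the shortest members at 10 TPM or more.
TrnN: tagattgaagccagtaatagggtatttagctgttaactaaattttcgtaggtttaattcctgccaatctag
TrnC: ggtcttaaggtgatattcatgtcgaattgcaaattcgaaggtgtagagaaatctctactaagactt
TrnY: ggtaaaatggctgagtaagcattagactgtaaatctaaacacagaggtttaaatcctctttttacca
TrnC had 196 TPM in MigRI, 60.7 in Klf4, 1402 in Control (WT) and 299 in the library labelled Klf4 cKO. TrnY had 55.5, 18.2, 474 and 85.2 TPM, and TrnN had 68.8, 24.2, 289 and 94.3 TPM. Of the 20, 15 were lower in the second comparison, while with Klf4 these 3 were the only ones lower and 2 were higher. TPM of such short genes rests on few read positions, and neighbouring genes of one transcript cannot be separated by these files.

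Rn7sk, the 7SK RNA that holds the elongation factor P-TEFb inactive (chromosome 9, 78175302 to 78175633), had 19.8, 3.13, 204 and 25.3 TPM, differences of -2.33 and -2.96. Lockd, a long non-coding RNA (chromosome 6, 134929092 to 134951718), had 211, 29.4, 513 and 107 TPM. Rpph1, the RNA subunit of RNase P, had 147 TPM in MigRI, 16.3 in Klf4, 24.9 in Control (WT) and 9.77 in the library labelled Klf4 cKO, and the protein subunit Rpp21 had 415, 55.6, 827 and 251 TPM. Of the 50-base windows of Rn7sk 68.1% also occur in another gene, and the share was 68.1% for Rpph1 too. The values of these genes are thus uncertain. LOC115487216 had 48.8, 1.59, 49.4 and 2.22 TPM, differences of -4.26 and -3.97. That was the strongest weaker difference of any member at a mean of 10 TPM or more.

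Overlapping genes limit some of these values, since the kit does not mark strand and reads of overlapping genes cannot be told apart. An exon of another annotated gene on the opposite strand overlapped 70 of the 162 members (43.2%), against 31.9% of eligible genes. The most abundant non-coding member, LOC115487756 (chromosome 11, 4700444 to 4702192), had 2224, 525, 5394 and 442 TPM. Its RefSeq span overlaps that of Uqcr10 (4701968 to 4704344), an excluded complex III gene with 4561, 1236, 8869 and 1755 TPM. Both were lower in both comparisons.

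Tsix, the antisense RNA of Xist, had 169, 22.7, 657 and 149 TPM, differences of -2.84 and -2.13. Xist, which it overlaps, had 3.96, 1.76, 3.96 and 4.66 TPM. Ccdc38 had 129 TPM in MigRI and 1.04, 1.51 and 0.226 TPM in the other libraries, and it overlaps the member Snrpf. By RefSeq spans, 61 of 189 members overlapped another measured gene. In 13 of these a partner was also lower by 1 log2 in both comparisons, and in 10 a partner was higher in both. Of all eligible genes, 1.85% were lower in both and 22.5% higher in both. Most of the 13 are pairs of members counted from each side, such as Ccdc38 and Snrpf. Partners could also come from the excluded name families, such as Uqcr10, so the shares over eligible genes are not a matched comparison. The matching share of overlaps over eligible genes is not given.

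Long genes were few. At a mean of 10 TPM or more the 3 with the longest annotated transcripts were Mycbp2, a very large ubiquitin ligase (15233 nt), Rasgrp2, an activator of the small GTPase Rap1 (8815 nt), and Son, a splicing protein of nuclear speckles (8731 nt). Son had 55.5 TPM in MigRI, 15.3 in Klf4, 202 in Control (WT) and 49.1 in the library labelled Klf4 cKO, differences of -1.79 and -2.02. Rasgrp2 had 52.8, 12.7, 58.3 and 22.4 TPM, and Mycbp2 had 12.4, 5.12, 44.9 and 14.9 TPM. Rasgrp2 has 24 annotated transcripts, the shortest of 352 nt, and the one expressed is not known from these files. Pdcd4, an inhibitor of translation initiation, had 26.4, 3.79, 83.9 and 23.95 TPM.

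Gmfg, an actin regulator of blood cells, had 511, 33.3, 1170 and 570 TPM, differences of -3.90 and -1.04. Dapl1 had 591, 21.3, 218 and 91.1 TPM, differences of -4.73 and -1.25. Both were far lower with Klf4 and nearer the threshold in the second comparison. Sept1, a septin of lymphocytes, had 203, 12.9, 269 and 61.2 TPM, differences of -3.88 and -2.12, and is among the 15 members at -2 or lower in both. Its symbol had been turned into a date in the control table and was mapped back by name.

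Of the members, 20 were listed at 0 in Klf4 and 2 in the library labelled Klf4 cKO, with 0 in MigRI and Control (WT). Of all eligible genes, 93 were listed at 0 in MigRI, 94 in Klf4, 328 in Control (WT) and 38 in the library labelled Klf4 cKO. Tnp2, a spermatid nuclear protein gene, had 35.4 TPM in MigRI, was listed at 0 in Klf4, and had 50.6 TPM in Control (WT) and 9.74 in the library labelled Klf4 cKO. LOC115490316, a small nuclear RNA, had 1.63 TPM in MigRI, was listed at 0 in Klf4, and had 24.6 and 4.61 TPM in the other experiment. An exact 0 in such a table can be a failed estimate, and no fold is given. At 1 TPM or more in all 4 libraries were 158 members.

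No member came from the lists of cytolytic genes (20 eligible), inhibitory receptors (12), GIMAP GTPases (8), thymosins and actin regulators (20), lymphoid cytokines and their receptors (22), glycolysis (15), AP-1 and early response genes (17) or Kruppel-like factors (12). Of these, cytolytic genes had 12 lower with Klf4 and 17 higher in the library labelled Klf4 cKO. The lists are not complete. Outside the list of thymosins and actin regulators, the thymosin gene Tmsb15b1 and the actin regulator Gmfg were members. S100a13, a calcium-binding protein gene, was the 1 member of 13 S100 and calcium-binding genes, with 422, 74.0, 1599 and 428 TPM. Nop10, a small protein of H/ACA ribonucleoproteins, was the 1 member of 18 genes of the translation machinery. Symbols starting with Zfp gave 3 members of 171 (1.75%), near the share over all eligible genes. They were the zinc finger genes Zfp52 and Zfp938, and Zfp85os, which RefSeq classes as a long non-coding RNA.

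The T cell label was checked against its markers. All 8 CD8 T cell markers were lower with Klf4, and 6 of 8 were higher in the library with the cKO label, with a summed level of 4273 TPM in MigRI, 425 in Klf4, 5519 in Control (WT) and 9749 in the library labelled Klf4 cKO. Of 15 macrophage markers, 13 were higher with Klf4 and 8 in the library labelled Klf4 cKO, summed at 2213, 8264, 1586 and 2507 TPM, with none listed at 0. Of 9 eligible fibroblast and endothelial markers, 8 and 5 were higher, summed at 145, 1396, 30.7 and 254 TPM, with Cdh5 listed at 0 in at least 1 library. All 5 eligible mast cell markers were higher in both comparisons, summed at 1.91, 96.5, 0.278 and 65.6 TPM, and 6 of its 7 genes were listed at 0 in at least 1 library. Their part in the members' differences was not tested. In bulk samples, fewer cells of a type and less RNA per cell cannot be told apart.

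The direction of the members depends on what they are set against. The T cell receptor constant genes Trac, Trbc1 and Trbc2 had a mean difference of -2.03 with Klf4 and 1.82 in the library labelled Klf4 cKO. Relative to that mean, the members' median was 0.45 with Klf4 and -3.32 in the library labelled Klf4 cKO. In that setting 13 of the 190 stayed at -1 or lower in both and 131 were above 0 in either comparison.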

How the data were processed

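Expression was measured in 4 libraries, 1 per group, from RNA in TRI Reagent with the SMART-seq v4 kit for ultra low input, per the labels' protocols. The authors deposited TPM for each gene, in a table for each library. Trimmomatic, HISAT2, StringTie, edgeR and build mm10 are named in the submitters' processing notes. Versions, roles and the gene annotation were not given in the sources used here. TPM scales each library to one total, so abundant genes lower all others, and it keeps no depth, so no counting error could be given.

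Each table held 45777 entries. Among the control symbols 26 were calendar dates; 22 were mapped back by name and 4 genes behind ambiguous dates were left out, which left 45773 genes, of which 12570 had a mean TPM of 1 or more. Differences are of log2(TPM + 1), within an experiment, and understate the change of low genes. With 1 library per group, whether from separate animals or not, no test was possible. The members and the lists were chosen with earlier results of these data known.

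Members were matched to RefSeq (GRCm38.p6) by symbol (163), gene ID (21) or synonym (5), and 1, Hist1h2ap, was not matched. Coordinates and promoters are from RefSeq, and lengths, exons, stem loops and transfer RNA sequences from GENCODE vM21, the longest annotated transcript standing for a gene. Named genes were the most abundant members, those with the strongest weaker difference at a mean of at least 10 TPM, those nearest the threshold, list members, the longest, the shortest and the most abundant non-coding ones. Hcst, Gmfg, Dapl1, Ccl1, Pdcd4, Cycs, Rpph1, Rpp21, Ccdc38, Cenpk, Cdkn3, Tmsb15b1, Uqcr10, Xist, H1f1 and the receptor constant genes are outside this rule and were picked with their values known. The same holds for Ifi27 and Isg15. Python 3.11.15 with pandas 2.3.3, numpy 2.4.6 and matplotlib 3.10.9 was used, and the selection was tested on simulated data. Alternatives were other pseudocounts, filters, scalings, thresholds and length definitions.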

Additional observations from a re-analysis of the deposited data

How the results depend on the processing

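No paired analysis was possible because each group has 1 library and the labels give no replicate numbers; for the same reason no library could be left out. The number of genes lower in both was 190. It became 689 with median of ratios scaling and 761 relative to the median gene (both holding all 190, which the second does by construction since the median gene was higher). It was 566 with quantile normalization (177 shared) and 65 at a threshold of -1.5. Without genes that overlap another it was 84, in a setting that also left out genes without a GENCODE match. Relative to Trac, Trbc1 and Trbc2, an alternative chosen after seeing the data, it was 33, of which 13 shared, and the members' median with Klf4 turned to 0.45. The other alternatives gave 129 to 269 genes. The median difference with Klf4 moved from -1.58 to -1.88 and -1.37 with a pseudocount of 0.1 and 5, to -2.48 with median of ratios, -2.16 with quantile normalization, -1.75 without the 50 most abundant genes and -2.55 relative to the median gene. That for the library labelled Klf4 cKO moved from -1.499 to -1.63, -1.37, -2.47, -2.04, -1.66 and -2.29 in the same order. The median length moved from 1049.5 nt to 1715.5 nt with median of ratios, 2335 nt with quantile normalization and 2075 nt relative to the median gene, settings that also took in more genes. It was 627.5 nt over the median transcript of a gene, against 1236 nt for eligible genes. Over the shortest transcript it was 455 nt, against 495 nt for eligible genes, so the size of the contrast depends on the transcript chosen. The protein-coding share moved from 76.2% to 86.7% with a pseudocount of 5, and to 82.7% and 86.3% at a mean of 5 and 10 TPM. It was 84.0% with median of ratios and 83.3% without genes listed at 0. It was 86.9% without genes that overlap another or lack a GENCODE match. Without LOC symbols, a setting chosen after seeing the data, it was 88.3%. The cause of these shifts was not tested. Also chosen after seeing the data were leaving out histone genes, which left 163, and rescaling over genes of at least 1000 nt, which gave 198 genes, 84 of them members. Depth is unknown, so no limit from counting can be given.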
